A study of Ovis aries with 7 samples.

Results

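The 6 serotonin receptor genes described here are HTR1B, HTR1F, HTR2A, HTR2C, HTR4 and HTR7, out of 13 genes of the family that carry a symbol among the 26479 features of the table. They were taken by symbol, and the set was chosen by measured levels in these same nuclei, with HTR2C leading the D1 and HTR2A and HTR4 the D2 medium spiny neurons, so levels across cell classes are given as a description, with no test. Nuclei came from the striatum of OVT73 sheep, a Huntington's disease model that carries a full-length human HTT cDNA with an expanded polyglutamine tract under an upstream segment of the human HTT gene, and of wild-type sheep without the transgene. All sheep were 5 years old. The 3 OVT73 libraries each pooled the nuclei of 2 sheep, as did control libraries 3 and 4, while control libraries 1 and 2 each held 1 sheep. The question addressed by the comparison is whether transcript levels differ between OVT73 and control striatum before overt disease, and for these genes whether they do so in any cell class. The study's methods place the tissue in the anterior ventral-medial striatum, whereas the sample labels word the region differently. The sexes were not balanced equally in the OVT73 and control groups, and sex entered no fit.

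Serotonin reaches the striatum in fibres from the raphe nuclei of the brainstem and acts there on a family of receptors. HTR2A and HTR2C couple to Gq proteins and phospholipase C, HTR4 and HTR7 couple to Gs proteins and raise cAMP, and HTR1B and HTR1F couple to Gi proteins and lower it. Medium spiny neurons (MSN), the projection neurons of the striatum, form a D1 class with the dopamine receptor DRD1 and the peptide gene TAC1, and a D2 class with DRD2 and PENK. HTR2C transcripts undergo A-to-I editing by enzymes of the ADAR family in the brain. A small class of eccentric MSN and several kinds of interneuron make up the other striatal neurons.

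The 7 libraries held 35272 barcodes and between 20887378 and 70473426 UMIs each. After filtering, 32599 nuclei were kept (17439 OVT73 and 15160 control), at 3102 to 8340 nuclei and a median of 1860 to 2562 UMIs per nucleus in a library. Any 2 of the libraries shared 1 to 19 barcodes. Classes were named from marker genes and each name stands for nuclei like that type, a qualification that is dropped from here on. Of 28 clusters, 8 (3.87% of nuclei) met the markers of several classes or of none and were left unnamed. DRD1 has no symbol in the feature table, so the D1 class rested on its other markers: pooled over libraries, TAC1 stood at 231 CPM (UMI counts scaled to 1000000 UMIs of the class) in the D1 class and 15.9 CPM in the D2 class, and DRD2 at 2.09 and 44.6 CPM. The 791 MSN without subtype were shallow nuclei (median 1200 UMIs, against 22383 in the D1 class), and 272 of them came from control library 2.

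HTR4 gave 61944 UMIs in 6886 nuclei, HTR2C 30333 UMIs in 4826 nuclei and HTR2A 11352 UMIs in 3629 nuclei. HTR7 gave 976 UMIs in 386 nuclei. HTR1F and HTR1B were scarce, with 64 and 45 UMIs. Transcript lengths were not used, so CPM values are compared between classes for a gene and not between genes. In pooled nuclei, fewer expressing nuclei and less RNA per nucleus cannot be told apart from a class sum alone, and for that reason the share of nuclei with at least 1 UMI is given as well.

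**Figure D1:**
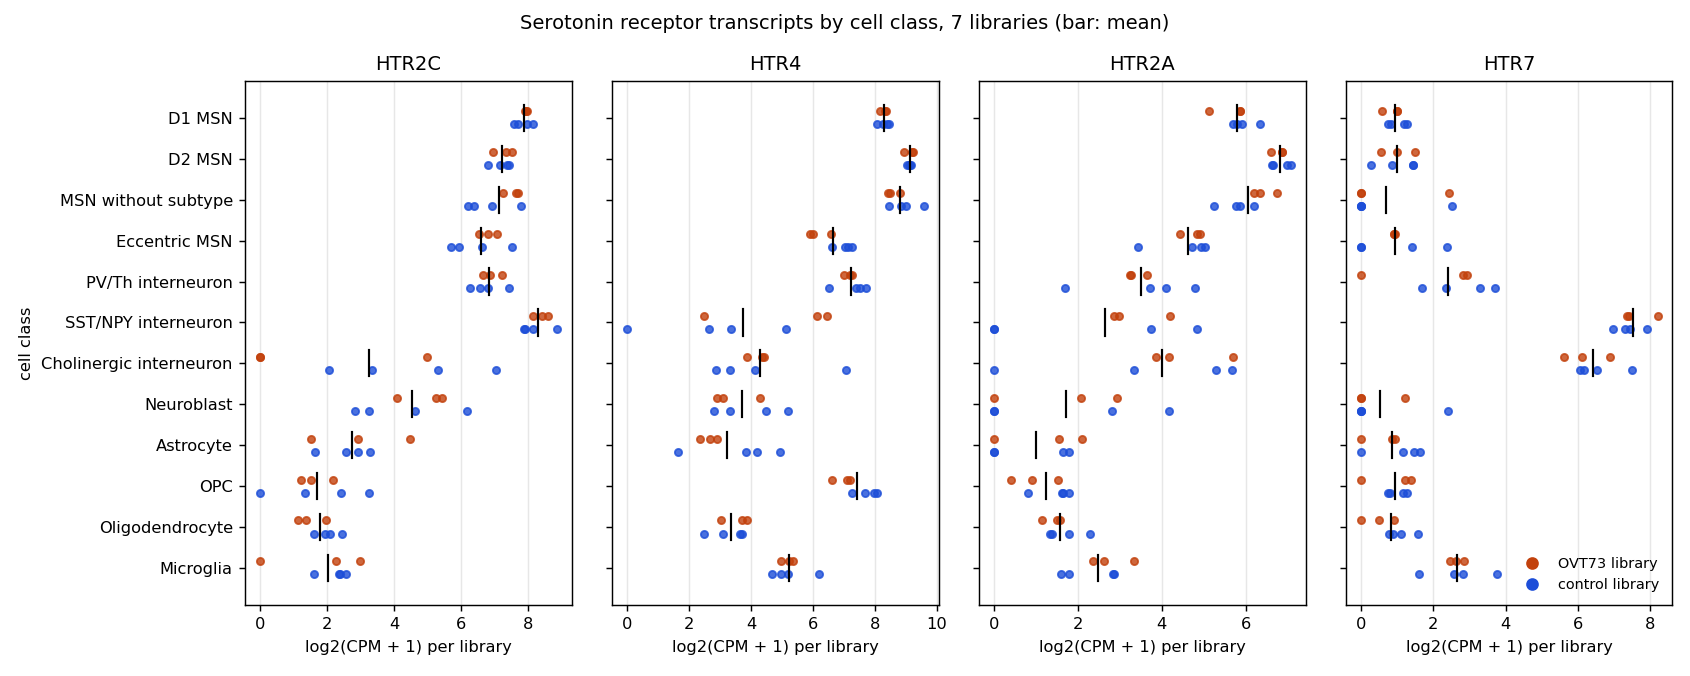
Level of HTR2C, HTR4, HTR2A and HTR7 in 12 cell classes, with log2(CPM + 1) on the horizontal axis, 1 point per library (orange OVT73, blue control) and a bar at the mean over the 7 libraries. HTR2C, HTR4 and HTR2A were high in the D1 and D2 MSN. HTR2C had its highest mean in the SST/NPY interneurons, and HTR4 was also high in oligodendrocyte precursors. HTR7 was high in the SST/NPY and cholinergic interneurons. The excitatory and endothelial classes, which held few UMIs, are not drawn.

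HTR2C, the receptor whose transcripts are edited, had its highest means in the SST/NPY interneurons, the striatal cells that release somatostatin and neuropeptide Y, and in the D1 MSN. Its mean level over the 7 libraries was 320 ± 83.3 CPM (SD, n = 7) in SST/NPY interneurons, with a range of 237 to 466 CPM. In the D1 class it was 237 ± 30.3 CPM (190 to 282 CPM) and in the D2 class 151 ± 26.3 CPM (112 to 182 CPM). The SST/NPY and D1 ranges overlapped, whereas the lowest D1 library lay above the highest D2 library. MSN without subtype followed at 151 ± 60.8 CPM, PV/Th interneurons at 117 ± 33.7 CPM and eccentric MSN at 104 ± 44.3 CPM, and the ranges of these neighbours overlapped. The unnamed nuclei, left out of this order, gave 139 ± 50.1 CPM of HTR2C, and an unnamed cluster of 292 nuclei with neuron markers gave 224 CPM pooled over libraries. In the glial classes the HTR2C means lay between 2.61 and 7.43 CPM. No HTR2C UMI was found among the 150755 UMIs of the 91 endothelial nuclei, which allows a level of up to 19.9 CPM (3 counts of the total, counting error only).

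HTR2C was found in most nuclei of its leading classes. At least 1 UMI was present in 89.3% of 2591 D1 nuclei, 75.7% of SST/NPY nuclei and 73.1% of 2292 D2 nuclei. Oligodendrocytes, taken as a type that should lack the gene, gave 0.522% at a median of 1769 UMIs per nucleus. With every nucleus thinned to 1000 UMIs and shallower nuclei left out (none in the D1 or D2 class, 13421 of 15144 oligodendrocytes retained), the shares were 20.1% in D1, 14.1% in D2, 23.4% in SST/NPY and 0.253% in oligodendrocytes. The PV/Th interneurons were uneven. Only 26.6% of their nuclei carried HTR2C, and the 10% of nuclei with the most HTR2C held 72.9% of its UMIs, against 33.8% in the D1 class.

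HTR4, the Gs-coupled receptor with the largest number of UMIs, led in the D2 class at 556 ± 36.3 CPM (SD, n = 7; 493 to 597 CPM). The MSN without subtype stood at 461 ± 150 CPM and the D1 class at 313 ± 27.1 CPM (269 to 347 CPM). Oligodendrocyte precursor cells (OPC), the dividing glia that give rise to oligodendrocytes, came next at 179 ± 63.0 CPM (96.7 to 266 CPM), followed by PV/Th interneurons at 154 ± 38.6 CPM and eccentric MSN at 105 ± 36.8 CPM. The D2 and D1 ranges did not overlap, and the lowest D1 library lay just above the highest OPC library. The OPC, PV/Th and eccentric ranges overlapped in turn. The D2 class joined a pair of clusters that differed in these genes, and their levels are given because HTR4 in particular depended on the cluster. In the larger cluster (2081 nuclei) HTR4 was 604 ± 38.3 CPM, HTR2C 140 ± 25.5 CPM and HTR2A 87.0 to 131 CPM (SD, n = 7). In the smaller cluster (211 nuclei, 20 to 50 per library) HTR4 was 128 ± 40.0 CPM (89.3 to 201 CPM), HTR2C 239 ± 26.2 CPM and HTR2A 154 ± 31.5 CPM (SD, n = 7). HTR4 was thus below the D1 level in all 7 libraries in the smaller cluster and above it in all 7 in the larger one, while HTR2A was above the D1 level in both clusters in all 7. HTR2C was above the D1 level in 3 of the 7 libraries in the smaller cluster and in 0 in the larger one. Microglia gave 38.4 ± 15.4 CPM, and SST/NPY interneurons, where HTR2C was high, gave 29.9 ± 35.2 CPM of HTR4. Astrocytes and oligodendrocytes gave 11.2 ± 9.79 and 9.76 ± 3.35 CPM.

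The OPC level was compared with the MSN transcripts found in the same nuclei. HTR4 in OPC stood at 29.7% of its pooled level in the D2 class, while the 10 MSN markers stood at a median of 8.93% (2.51% to 21.1%) of the higher of their pooled D1 and D2 levels. HTR2C and HTR2A in OPC were at 1.05% and 1.13% of theirs. In oligodendrocytes HTR4 was at 1.89% and the markers at a median of 6.36%, and in microglia HTR4 was at 6.65% and the markers at 5.16%. HTR4 in OPC thus exceeded the highest of the 10 markers, which was not the case in oligodendrocytes or microglia.

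HTR4 was found in 94.6% of D2 nuclei, 89.6% of D1 nuclei, 69.6% of PV/Th nuclei and 36.1% of 2923 OPC nuclei. The OPC were shallower, at a median of 3588 UMIs against 23120.5 in the D2 class, and most positive OPC held a single UMI (median 1, highest 13), whereas positive D2 nuclei held a median of 12 and up to 91. After thinning to 1000 UMIs the shares were 40.2% in D2, 24.7% in D1, 15.0% in OPC (2882 nuclei retained) and 14.1% in PV/Th nuclei. The same share was 3.0% in microglia and 0.849% in oligodendrocytes.

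HTR2A, the second Gq-coupled receptor and the one through which psychedelic drugs act, was at 112 ± 14.5 CPM in the D2 class (SD, n = 7; 96.7 to 134 CPM). MSN without subtype gave 68.4 ± 22.4 CPM and the D1 class 56.1 ± 13.7 CPM (33.7 to 80.2 CPM). The D1 and D2 ranges did not overlap, while the MSN without subtype overlapped both. Cholinergic interneurons (25.6 ± 20.7 CPM) and eccentric MSN (24.8 ± 7.53 CPM) came next and overlapped each other, and the glial means lay between 1.39 and 5.04 CPM. The gene was found in 78.7% of D2, 53.9% of D1 and 30.6% of eccentric nuclei, and in 0.416% of oligodendrocytes. After thinning these shares were 11.5%, 4.59%, 1.89% and 0.186%.

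HTR7, the other Gs-coupled member, was highest in the SST/NPY and cholinergic interneurons. SST/NPY interneurons gave 188 ± 57.9 CPM (SD, n = 7; 124 to 294 CPM) and cholinergic interneurons, which release acetylcholine, 91.6 ± 44.5 CPM (47.9 to 179 CPM), and these ranges overlapped. With nuclei thinned to 1000 UMIs the SST/NPY mean was 124 CPM. The D1 and D2 classes, with 0.946 ± 0.330 and 1.11 ± 0.644 CPM, were far lower, and PV/Th interneurons, with 5.70 ± 4.06 CPM (5.15% of nuclei), stood close to the microglia mean of 5.93 CPM. The microglia class joined a pair of clusters that differed in HTR7. Pooled over libraries, HTR7 was 2.28 CPM in the larger (2781 nuclei) and 36.6 CPM in the smaller (199 nuclei). The smaller cluster stood higher in macrophage markers (mean log2 rise 4.04 against 1.26). HTR7 was found in 78.5% of SST/NPY nuclei (84 nuclei) and 49.1% of cholinergic nuclei (28 of 57), against 2.20% of D1 and 2.66% of D2 nuclei at a like or greater depth. Both interneuron classes are small, and single libraries held few of their nuclei. The endothelial mean of 35.6 ± 48.7 CPM rested on 8 UMIs.

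HTR1F and HTR1B could be placed only loosely. HTR1F gave 19 UMIs in 19 PV/Th nuclei (3.62 ± 3.02 CPM, SD, n = 7; 0 to 8.88 CPM) and 16 or fewer in each other class, among them 16 in the D2 and 12 in the D1 class. HTR1B gave 28 UMIs in 28 D1 nuclei (0.426 ± 0.233 CPM) and 11 in D2 nuclei. For both genes the ranges of all neighbouring classes overlapped, and no UMI was seen in 7 classes for HTR1F and in 9 for HTR1B.

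**Figure D2:**
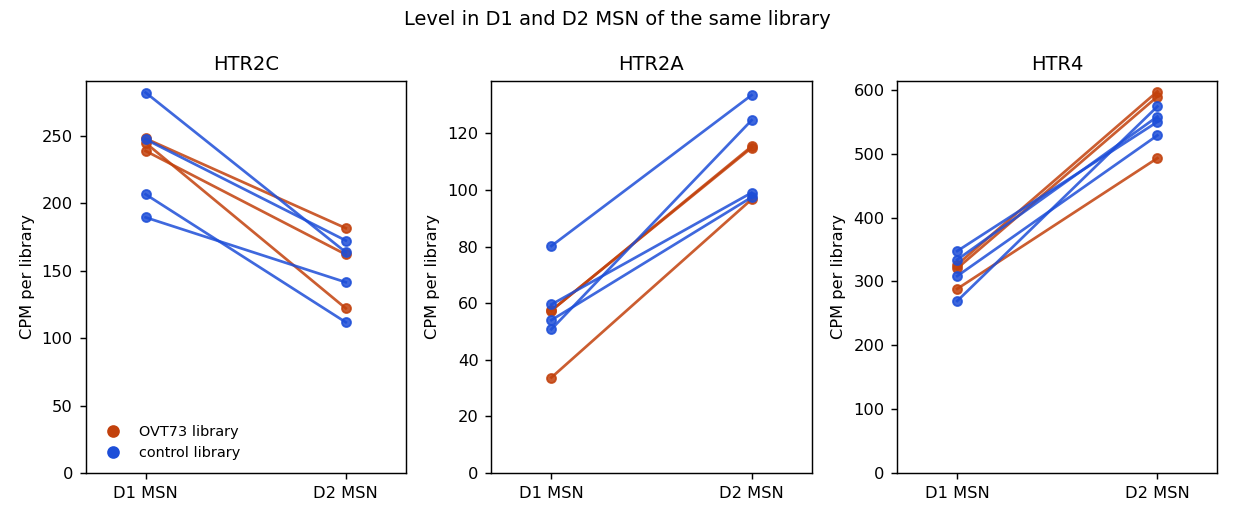
CPM of HTR2C, HTR2A and HTR4 in the D1 and D2 MSN of each library, the 2 values of a library joined by a line (orange OVT73, blue control, vertical axes starting at 0). All 7 lines descended from D1 to D2 for HTR2C and all 7 ascended for HTR2A and HTR4.

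The D1 and D2 levels of HTR2C, HTR2A and HTR4, which served to choose these genes, kept their order in each library over the whole D2 class. HTR2C was 248, 245 and 239 CPM in the D1 class of OVT73 libraries 1 to 3 and 282, 248, 207 and 190 CPM in that of control libraries 1 to 4. In the D2 class it was 182, 122 and 162 CPM in the OVT73 libraries and 164, 172, 112 and 142 CPM in the control libraries. The D1 level was 1.34 to 2.01 times the D2 level of the same library, a D2 minus D1 difference of −0.66 ± 0.23 log2 units (SD, n = 7).

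HTR2A ran the other way. It was 57.4, 33.7 and 57.4 CPM in the D1 class of the OVT73 libraries and 59.5, 54.0, 50.8 and 80.2 CPM in that of the controls. In the D2 class it was 115, 96.7 and 115 CPM in the OVT73 libraries and 99.0, 97.4, 125 and 134 CPM in the controls. The D2 level was 1.66 to 2.87 times the D1 level, a difference of 1.01 ± 0.29 log2 units, and OVT73 library 2 had both the lowest D1 value and the widest gap.

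HTR4 was 320, 288 and 326 CPM in the D1 class of the OVT73 libraries and 308, 347, 269 and 334 CPM in that of the controls. In the D2 class it was 589, 493 and 597 CPM in the OVT73 libraries and 529, 550, 574 and 558 CPM in the controls. The D2 level was 1.58 to 2.13 times the D1 level, a difference of 0.83 ± 0.14 log2 units, the steadiest of the 3 genes by SD. HTR7 had no fixed order, since it was higher in the D2 class in 4 libraries and in the D1 class in 3. HTR1B was higher in the D1 class in 6 libraries, on 28 and 11 UMIs.

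The 3 MSN receptors were found together in the same nuclei about as often as their separate shares gave. In the D1 class 79.9% of nuclei held both HTR2C and HTR4, and the product of the separate shares was 80.1%. In the D2 class 74.2% held both HTR2A and HTR4 (product 74.5%), 59.6% both HTR2A and HTR2C (product 57.6%) and 68.4% both HTR2C and HTR4 (product 69.2%). Depth per nucleus was not held equal, and large shares leave little room around the product. A value near the product therefore cannot be read as independence of the genes. Nuclei with neither HTR2C nor HTR4 made up 0.888% of the D1 and 0.654% of the D2 class.

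Of the other 7 receptor genes of the family, HTR2B, HTR6 and HTR5A were the ones with sizeable counts in MSN. HTR6, a Gs-coupled receptor known from the striatum, stood at 19.8 CPM in D1, 23.0 CPM in D2 and 17.4 CPM in eccentric MSN and at 3.2 CPM in OPC. HTR5A stood at 11.5 CPM in D1 and 12.2 CPM in D2. HTR2B gave 9152 UMIs spread over all classes, between 30.1 CPM in MSN without subtype and 97.3 CPM in microglia. In another sheep assembly HTR2B lies within the span of PSMD1, so its reads cannot be told apart from those of that gene with certainty. HTR3B, HTR1E, HTR3A and HTR1A gave 114, 32, 20 and 2 UMIs.

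Genes for making and carrying serotonin gave few UMIs beside HTR4 and HTR2C. TPH1 and TPH2, the rate-limiting enzymes of serotonin synthesis, gave 148 and 1136 UMIs, the serotonin transporter SLC6A4 gave 1882, the vesicular transporter SLC18A2 gave 775 and DDC gave 1616. The highest class mean of SLC6A4 was 28.9 CPM, in cholinergic interneurons, and DDC stood at 43.3 CPM in neuroblasts (0 to 118 CPM) and 28.8 CPM in oligodendrocytes. The enzymes that break serotonin down were placed by class. MAOA stood at 179 CPM in astrocytes and 117 CPM in microglia against 14.2 CPM in D1 MSN, and MAOB at 84.3 CPM in astrocytes, 58.2 CPM in OPC and 51.5 CPM in D1 MSN against 4.8 CPM in oligodendrocytes. Among the genes of the ADAR family, ADARB1 stood at 150 CPM in D1 and 141 CPM in D2 MSN. ADARB2 stood at 166 CPM in D1 against 9.4 CPM in D2 MSN and at 904 CPM in eccentric MSN. A level of these genes does not give the editing activity of a class.

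The genes whose class levels were most alike to each member are given as a description over the 14 classes, which share libraries and differ in depth. HTR2C was closest to SLC12A5 (Pearson's r = 0.97 on log2(CPM + 1)), PTPRN (0.96) and TCERG1L (0.96). HTR4 was closest to SRSF4 (0.94), RGS8 (0.90) and PRMT3 (0.90), and HTR2A to CPNE5 (0.95), C18orf25 (0.94) and MCTP1 (0.93). HTR7 was closest to LHX6 (0.85), RCAN1 (0.82) and MTHFD1L (0.80). HTR1F was closest to LGI2 (0.87), PTHLH (0.85) and NKX2-1 (0.82), and HTR1B to TNN (0.73), PCP4L1 (0.71) and DCLK3 (0.68). LHX6 and PTHLH were also among the markers used to name interneuron classes, so their likeness is not a separate result. The values for HTR1F and HTR1B rest on few UMIs.

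In the comparison of OVT73 with control, UMIs were summed per library and class and tested with edgeR's quasi-likelihood test across all genes of a class. Of the 60 pairs of a member and a class, 20 passed the filter on low counts, in 9 classes. None of the 20 was called at an adjusted p below 0.05 (lowest adjusted p 0.478), against 0.00244% of the 82103 gene tests of all kinds over the classes. At an unadjusted p below that threshold there were 4 of the 20 by edgeR, against 4.88% of all gene tests. DESeq2 also gave 4 there and called 0 after adjustment. Over all genes of the 9 classes its unadjusted counts ran from 129 of 6801 in microglia to 558 of 11991 in the D2 class. The 20 tests share libraries and genes, so their share is no test. The log2 fold change (OVT73 over control) was positive in 11 and negative in 9 of the 20, with a median of 0.056, while the medians of all genes lay between −0.033 and −0.013 by class.

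**Figure D3:**
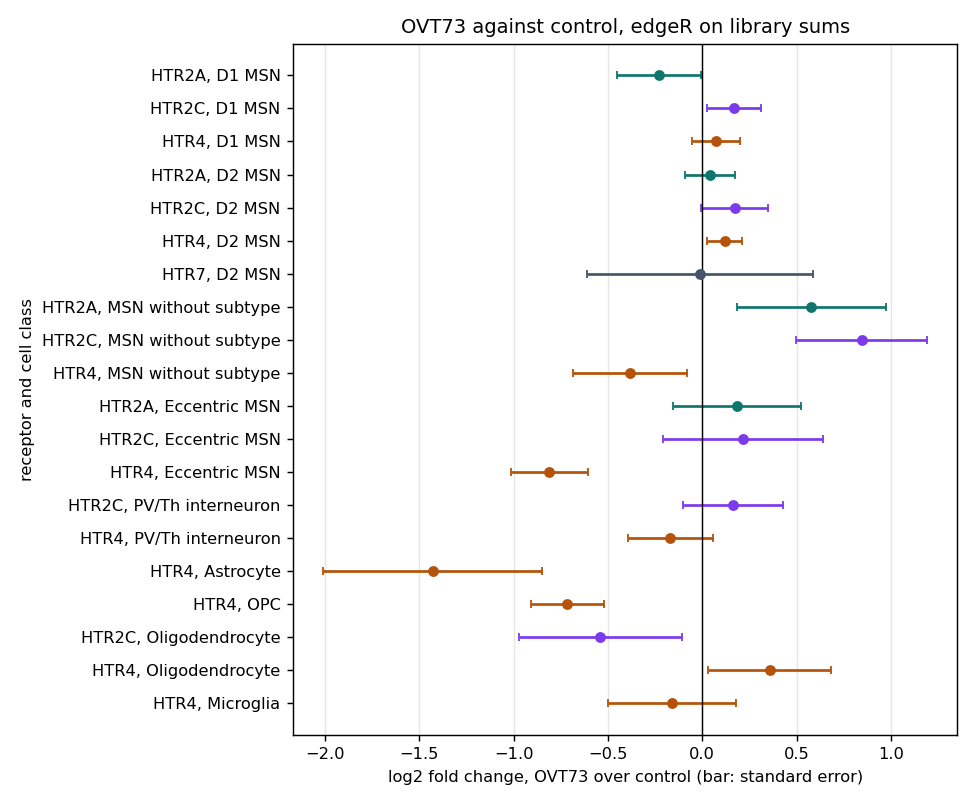
Log2 fold change of OVT73 over control for the 20 pairs of a receptor gene and a cell class that were tested, with the standard error of the fit as a bar. The estimates in the D1 and D2 MSN lay between −0.23 and 0.17, and the estimates for HTR4 in eccentric MSN, astrocytes and OPC lay below −0.5.

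In the D1 and D2 MSN the members of both groups lay close together. HTR4 in the D2 class was 615, 533 and 604 normalized CPM (scaled with TMM factors) in the OVT73 libraries and 511, 548, 533 and 558 in the controls. The groups overlapped, with a log2 fold change of 0.12 (SE 0.093) and an edgeR adjusted p of 0.901. The log2 fold change of HTR4 in the D1 class was 0.072 (SE 0.127, edgeR adjusted p 0.960). That of HTR2A was −0.23 in the D1 class (SE 0.223, edgeR adjusted p 0.948) and 0.040 in the D2 class (SE 0.132, edgeR adjusted p 0.974). The signs for HTR4 in D1 and HTR2A in D2 turned without normalization factors (−0.015 and −0.062), so no direction is given for either. HTR7 in the D2 class rested on 63 UMIs (log2 fold change −0.012, SE 0.598).

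HTR4 was lower in the OPC of OVT73 animals than in those of controls by estimate, without passing the test. It was 151, 105 and 141 normalized CPM in the OVT73 libraries and 263, 258, 193 and 153 in the controls, or 132 ± 24.0 (SD, n = 3) against 217 ± 53.1 (SD, n = 4). All OVT73 libraries lay below all control libraries, OVT73 library 1 by a narrow margin under control library 4. In the OPC, 3.31% of all genes tested had that arrangement. The log2 fold change was −0.72 (SE 0.194) with an edgeR adjusted p of 0.596, and 0.0111% of genes were called in the class. The exact two-sided permutation p was 0.0571, where 0.0286 is the smallest that 3 against 4 libraries can give.

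The call for HTR4 in OPC depended on which genes entered the fit. With no filter on low counts the same comparison gave −0.66 and an edgeR adjusted p of 0.00524, which is past the threshold along with 0.193% of all genes so tested, and DESeq2 gave −0.72 with an adjusted p of 0.232. With only the 5 libraries that pooled 2 sheep, a setting chosen after seeing the data, the fold change was −0.38 (SE 0.172, edgeR adjusted p 0.433). The highest values were those of the 2 control libraries of 1 sheep, and whether the number of sheep had a part in the difference was not tested.

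By nucleus, HTR4 was found in 37.9%, 22.8% and 33.7% of OPC in the OVT73 libraries and in 50.3%, 51.9%, 34.2% and 31.3% in the controls, and these shares overlapped. Depth overlapped between the groups here, with a median of 3516 to 4627 UMIs per OPC in OVT73 libraries against 2584.5 to 3879 in controls. After thinning to 1000 UMIs the shares were 11.5%, 8.67% and 13.2% against 22.3%, 22.8%, 17.8% and 15.9%, and did not overlap. How many of all genes had that arrangement after thinning was not counted. The sum of the 10 MSN markers in OPC was 2459 to 2707 CPM in OVT73 and 2040 to 2718 CPM in control libraries, and that of the 6 D2 markers (1 of them at 0) was 56.3 to 89.4 CPM against 63.4 to 156 CPM. The 4 D1 markers with a symbol (1 of them at 0) summed to 51.6, 39.5 and 43.9 CPM in OVT73 libraries 1 to 3. In control libraries 1 to 4 they summed to 85.8, 87.0, 40.3 and 68.4 CPM, so the groups overlapped. The 9 OPC markers summed to 25162 to 27401 CPM in OVT73 and 23731 to 24834 CPM in control libraries, with no overlap. The part of these markers in the HTR4 difference was not tested.

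**Figure D4:**
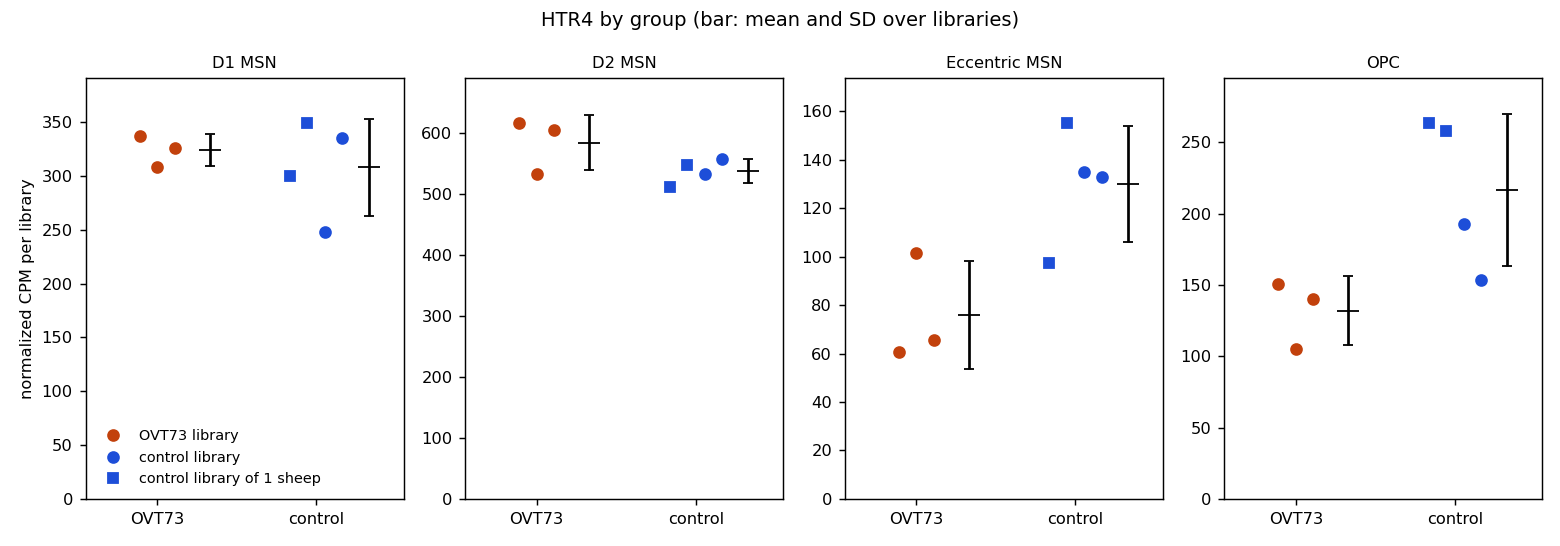
HTR4 in 4 cell classes as normalized CPM on vertical axes starting at 0, with 1 point per library (orange circles OVT73, blue control, squares for control libraries of 1 sheep) and the mean with its SD beside the points. The groups overlapped in the D1, D2 and eccentric MSN, and in OPC the OVT73 libraries (105 to 151) lay below the control libraries (153 to 263).

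Eccentric MSN, named here by a marker list that includes OTOF and FOXP2, gave a similar estimate for HTR4. It was 60.7, 101 and 65.6 normalized CPM in the OVT73 libraries and 97.4, 155, 135 and 133 in the controls, or 75.9 ± 22.2 (SD, n = 3) against 130 ± 23.9 (SD, n = 4). OVT73 library 2 lay above control library 1, so the groups overlapped on this scale. In plain CPM, without the factors, it was 58.3, 94.2 and 63.0 in the OVT73 libraries and 97.2, 152, 138 and 131 in the controls, which did not overlap (exact permutation p 0.0571). How many of all genes had that arrangement in plain CPM was not counted. With the factors, 305 of the 7410 genes tested in this class had all OVT73 libraries below all control libraries. In this class 0.0135% of genes were called. The log2 fold change of HTR4 was −0.81 (SE 0.204), with an edgeR adjusted p of 0.478, the lowest among the 20, and an exact permutation p of 0.0857 with the factors. With no filter on low counts it was −0.73 and passed the threshold with an edgeR adjusted p of 0.0351, as did 0.269% of all genes so tested, with equal numbers of nuclei per library it was −0.37, and with the 2-sheep libraries alone it was −0.83 (edgeR adjusted p 0.254). A library held 24 to 73 nuclei of this class, and the sum of 7 eccentric markers was 12451 to 13305 CPM in OVT73 and 10939 to 21188 CPM in control libraries.

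Whether the HTR4 difference in these classes stood apart from that in the main MSN classes was tested in 4 comparisons, chosen after the values were seen. Eccentric minus D2 HTR4 was −3.33, −2.39 and −3.19 log2 units in the OVT73 libraries and −2.39, −1.82, −1.98 and −2.07 in the controls. The OVT73 values were lower by 0.91 on average (the groups' difference was −0.91), with an exact permutation p of 0.0286 and 0.0571 after adjustment over the 4. The differences for eccentric minus D1 (−0.87), OPC minus D1 (−0.78) and OPC minus D2 (−0.81) each had an exact permutation p of 0.0571. None of the 4 passed 0.05 after adjustment, which does not cover the choice of these classes from the same values.

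In the remaining classes HTR4 was 5.50, 6.82 and 4.16 normalized CPM in OVT73 astrocytes against 2.14, 30.5, 13.7 and 17.6 in control astrocytes (57 UMIs in all). The groups overlapped through control library 1, and the log2 fold change was −1.43 (SE 0.580, edgeR adjusted p 1.00). PV/Th interneurons gave −0.17 (SE 0.226) and microglia −0.16 (SE 0.339), which became 0.13 with the 2-sheep libraries alone. Oligodendrocytes gave 0.36 (SE 0.327) for HTR4 on 334 UMIs and −0.54 (SE 0.433) for HTR2C on 84 UMIs.

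**Figure D5:**
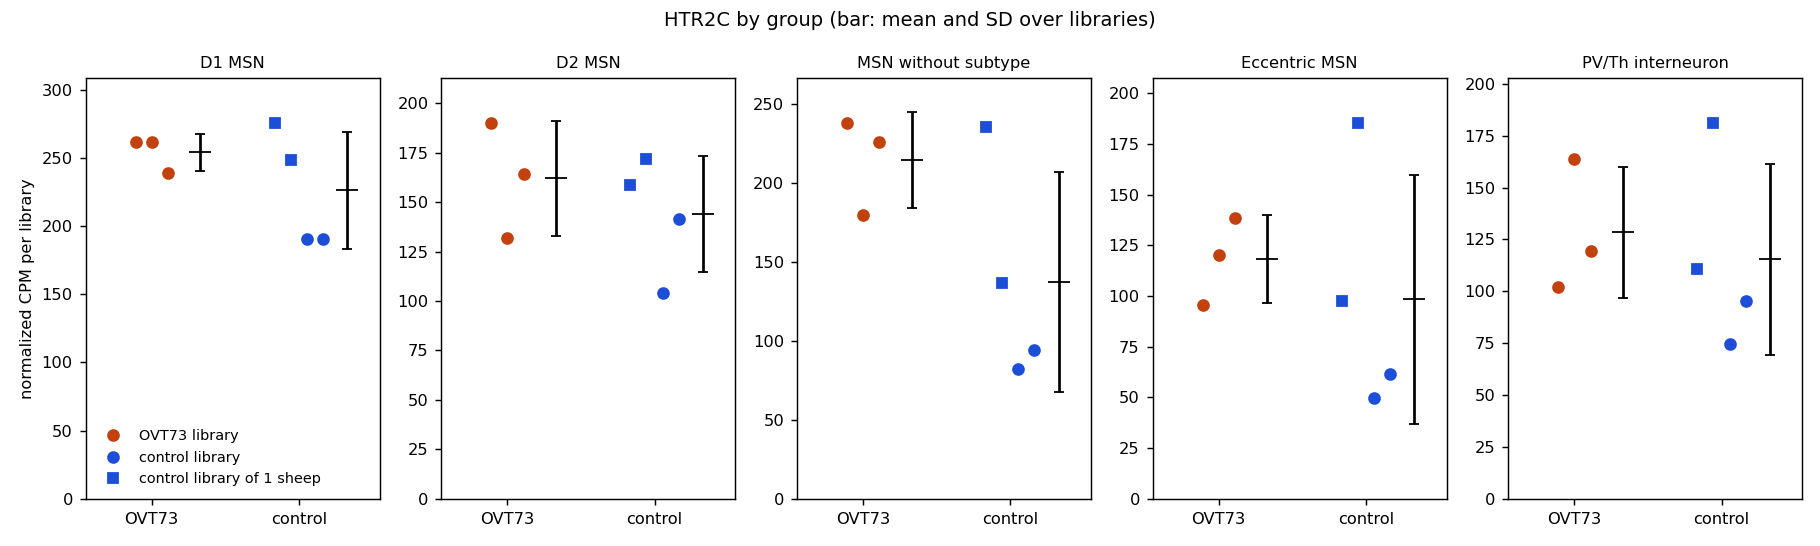
HTR2C in 5 neuron classes as normalized CPM on vertical axes starting at 0, with 1 point per library (orange circles OVT73, blue control, squares for control libraries of 1 sheep) and the mean with its SD. In all 5 panels control libraries 3 and 4, of 2 sheep each, lay below control libraries 1 and 2, of 1 sheep each. The panels show the same libraries, so they are not repeats of each other. How many of all genes had that order was not counted.

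HTR2C in the D1 class was 262, 262 and 239 normalized CPM in the OVT73 libraries and 275, 249, 190 and 191 in the controls. The control libraries split, the pair of 1 sheep each lying with the OVT73 libraries and the pair of 2 sheep each below them. The log2 fold change was 0.17 (SE 0.143, edgeR adjusted p 0.948), and 0.42 (SE 0.125, edgeR adjusted p 0.678) with the 2-sheep libraries alone. The D2 class gave 0.17 (SE 0.176, edgeR adjusted p 0.919), and 0.40 with the 2-sheep libraries alone. The 2-sheep setting was chosen after seeing the data. It left out the control libraries with the higher HTR2C, so its larger estimates were fixed by that choice.

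The same split was seen in the eccentric MSN, at 95.8, 120 and 139 normalized CPM of HTR2C in the OVT73 libraries against 97.4, 185, 49.8 and 61.4 in the controls. The groups overlapped, with a log2 fold change of 0.22 (SE 0.424, edgeR adjusted p 0.954) that was 1.08 (SE 0.223, edgeR adjusted p 0.131) with the 2-sheep libraries alone. PV/Th interneurons gave 0.16 (SE 0.265) and 0.58 without the control libraries of 1 sheep. In both classes the libraries left out were the higher controls, so the larger estimates were fixed by that choice. The parts of the pooling and of sex in these values were not tested, and sheep and library cannot be told apart where a library held 1 animal.

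In MSN without subtype, HTR2A was 83.5, 128 and 90.4 normalized CPM in the OVT73 libraries and 39.3, 64.5, 82.1 and 61.0 in the controls. All OVT73 libraries lay above all control libraries, as they did for 3.02% of the genes tested in this class and, in either direction, for 5.96% of gene tests over all classes. HTR2A here rested on 110 UMIs, with a log2 fold change of 0.58 (SE 0.394), an exact permutation p of 0.0571 and an edgeR adjusted p of 0.947. In plain CPM the groups overlapped, with OVT73 library 1 at 72.1 and control library 3 at 72.8 (exact permutation p 0.0857). HTR2C gave 0.85 (SE 0.347, edgeR adjusted p 0.909) and HTR4 −0.38 (SE 0.304, edgeR adjusted p 0.947) in these nuclei. These nuclei carried markers of both the D1 and D2 class, with the 4 D1 markers that have a symbol summing to 260.0 to 396 CPM in OVT73 and 280 to 925 CPM in control libraries. The 9 oligodendrocyte markers found summed to 69.2 to 911 CPM in OVT73 and 929 to 2811 CPM in control libraries, and the median UMIs per nucleus were 1327 to 1702 against 987 to 1292, with no overlap in either. The part of these markers and of depth in the HTR2A difference was not tested. HTR4 in OPC and HTR2A in these nuclei were the 2 of the 20 whose groups did not overlap on the normalized scale.

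The D2 minus D1 differences were then set against genotype. For HTR2C they were −0.66 ± 0.28 log2 units in OVT73 (SD, n = 3) and −0.66 ± 0.21 in control libraries (SD, n = 4), an exact permutation p of 0.971. For HTR4 they were 0.85 ± 0.053 and 0.81 ± 0.20 (exact permutation p 0.83), and for HTR2A 1.18 ± 0.30 and 0.89 ± 0.28, a difference of 0.28 (exact permutation p 0.314). No difference between the groups was detectable at this number of libraries, and the direction of the HTR2C and HTR4 differences between groups turned when single libraries were left out.

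The transducers and regulators downstream of these receptors were read from a list of 53 genes, of which 50 were found by symbol. None was called in 386 tests over the classes by edgeR. In the D1 class 24 of 46 had a positive log2 fold change (median 0.025, against −0.033 over all genes) and in the D2 class 27 of 46 (median 0.045, against −0.030). The D1 gene with the smallest p among the positive ones was GRK3, a kinase that desensitizes G protein-coupled receptors, at 29.1 ± 3.70 normalized CPM in OVT73 against 19.8 ± 2.89 in controls (log2 fold change 0.56, SE 0.167, edgeR adjusted p 0.948). Among the negative ones it was PPP1R1B, the MSN phosphatase inhibitor DARPP-32, at a mean of 20.9 normalized CPM against 31.6 (−0.60, SE 0.278, edgeR adjusted p 0.948).

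In the D2 class those genes were PDE4D, a cAMP phosphodiesterase (0.39, SE 0.132), and RGS2, which limits Gq signalling, at 27.3 ± 6.99 normalized CPM in OVT73 against 48.6 ± 12.1 in controls (−0.84, SE 0.230), both with an edgeR adjusted p of 0.899. The ADAR family genes ADAR, ADARB1 and ADARB2 were not called in any class by edgeR, with medians of 0.24 in D1, 0.19 in D2 and 0.39 in OPC on the log2 scale. Editing of HTR2C itself cannot be read from gene counts.

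The remaining receptors showed no called difference either. HTR6 was 17.2, 17.4 and 17.5 normalized CPM in the D2 class of OVT73 libraries and 19.0, 18.8, 35.5 and 34.1 in that of the controls. The OVT73 libraries lay just below control libraries 1 and 2 and far below control libraries 3 and 4, an arrangement that 2.76% of the genes tested in the D2 class had, with a log2 fold change of −0.63 (SE 0.246, edgeR adjusted p 0.899). HTR2B had a negative estimate in each of the 9 classes in which it was tested, between −1.31 in neuroblasts and −0.34 in OPC, with overlapping groups in all of them and no call by edgeR. The classes come from the same libraries, so these like signs are not separate results.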

How the data were processed

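Single nuclei RNA-seq libraries (10x Genomics) were made from striatal nuclei of OVT73 and control sheep. The authors deposited raw UMI counts per gene and barcode for each library, made with Cell Ranger 7.0.0 and STAR 2.7.2a per the submitters' processing notes on the Oar_rambouillet_v1.0 genome. Pooled sheep were not separated here, so the library is the replicate, and p-values measure the spread between libraries. The OVT73 libraries each held 2 sheep, whereas control libraries 1 and 2 each held 1, so the spread may differ between the groups. Neither the edgeR nor the permutation test allows for such a difference. The receptor genes and the gene lists were chosen with earlier results of these data known.

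Nuclei with 200 to 7500 genes and at most 5% mitochondrial UMIs were kept, as in the study's methods, and the 4% of nuclei with the highest simulated-doublet score in each library were removed (1358 in all; the caller's own threshold marked 129, of which 123 lay in OVT73 library 3). Variable genes were selected with scanpy 1.11.5, and nuclei were clustered with igraph 0.11.9 (Leiden, resolution 1). The clustering used 3000 variable genes, 30 principal components integrated over libraries and 20 neighbours. It was run before the doublets were taken out, so keeping doublets did not change the clusters. A cluster took the class with the highest mean log2 rise over the other clusters' median, where at least 3 of its markers were raised by over 1 log2 unit. It stayed unnamed where an unrelated class also met this with a mean of at least 0.5 of the best, and an MSN cluster was called D1 or D2 on at least 2 subtype markers and a mean at least 1.5 times that of the other subtype. This rule was set after the marker profiles were seen, and after an earlier depth-weighted reference had been tried, but before the groups were compared. Counts were summed per library and class, and a class was tested where all 7 libraries held at least 10 of its nuclei.

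The named genes were the 6 members in all classes, the other serotonin receptors, the genes of serotonin synthesis, transport and breakdown, the ADAR family genes, the signalling gene with the smallest p in each direction in the D1 and D2 MSN, and the 3 genes most alike to each member. Sums were tested with edgeR 4.0.16 (quasi-likelihood, TMM factors, filterByExpr) with Benjamini-Hochberg adjustment over all genes of a class, at a threshold of 0.05. For single genes, log2(normalized CPM + 0.5) was also permuted exactly over the 35 ways of drawing 3 of the 7 libraries (two-sided). Levels are plain CPM. Alternatives were other scaling factors, no filter, each library left out, doublets kept, a resolution of 0.5, equal numbers of nuclei, thinning and DESeq2 1.42.0. The edgeR test was also run on simulated counts of the D1, D2 and OPC classes with 200 changed genes. A log2 change of 0.5 was recovered for 0%, 1% and 3.5% of these genes in the 3 classes, with 1, 3 and 5 false calls. For a change of 1 the shares were 47.5%, 52% and 63.5%, with 16, 7 and 8 false calls. For a change of 2 they were 92%, 91.5% and 97%, with 16, 12 and 11 false calls. The D1 and D2 fits of the data called 0 genes, so these shares, found with 200 changed genes, may be too high for a single changed gene. A change of 0.5 would thus mostly not be called at this number of libraries. Intervals for a count of 0 cover counting error only. No sequences or annotation of the counted build were used here.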

Additional observations from a re-analysis of the deposited data

Results flagged for a closer look

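HTR4 in eccentric MSN relative to the D2 MSN of the same library was lower in OVT73 than in control libraries by estimate, in 1 of 4 comparisons chosen after the values were seen. The group difference was −0.91 log2 units, with an exact permutation p of 0.0286 for the difference itself, which is the smallest that 3 against 4 libraries can give, and 0.0571 after adjustment over the 4, which does not pass 0.05. The adjustment does not cover the choice of these classes from the same values, so these p-values cannot be read as a test of a question set beforehand. Without normalization factors the exact permutation p was 0.0571 and 0.0762 after adjustment. OVT73 library 2 and control library 1 had nearly the same value (−2.39 in both). A library held 24 to 73 eccentric nuclei, and the part of that number in the difference was not tested. None of the 23 sets of 4 control values of a receptor gene held a library that stood apart by Dixon's test, which chance alone gives in about 1 of 20 sets. That test looks for 1 extreme value. It cannot show a split of control libraries 1 and 2 from 3 and 4, as seen for HTR2C.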

How the results depend on the processing

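Of the alternative fits of a receptor gene in a class, 268 kept the direction and the side of the threshold, 2 passed the threshold, 18 changed sign and in 12 the gene was not tested. The 2 that passed were HTR4 in OPC and in eccentric MSN with no filter on low counts, so 2 receptor tests were called there against 0; the cause was not tested. Genes of all kinds called went from 2 to 149 with no filter, 20 with DESeq2, 14 with the 2-sheep libraries alone (chosen after seeing the data), 7 with equal numbers of nuclei, and 0 to 20 when single libraries were left out (20 without OVT73 library 1 and 0 without OVT73 library 2 or control library 2). The sign changes, none past the threshold, were as follows. Without normalization factors HTR4 in D1 gave −0.015 (exact permutation p 0.971) and HTR2A in D2 −0.062 (exact permutation p 0.743). With the 2-sheep libraries alone HTR2A gave −0.13 in D2 and −0.20 in eccentric MSN, and HTR4 in microglia gave 0.13; equal numbers of nuclei gave −0.20 for HTR2A in eccentric MSN. HTR7 in D2 gave 0.0036 with RLE size factors, 0.040 with no filter, 0.021 with doublets kept and 0.065 with DESeq2. With each library left out in turn, HTR4 ranged from −0.015 to 0.14 in D1 and −0.33 to 0.23 in microglia, HTR2A from −0.024 to 0.15 in D2 and −0.13 to 0.39 in eccentric MSN, HTR7 from −0.67 to 0.44 in D2 and HTR2C from −0.059 to 0.44 in PV/Th interneurons. The D2 minus D1 group difference ranged from −0.11 to 0.16 for HTR2C (0.0020 at resolution 0.5) and from −0.019 to 0.13 for HTR4. Of the class levels, 314 moved by less than 1 SD and 16 by more. Among the latter were HTR7 in SST/NPY interneurons (124 CPM thinned, on few UMIs) and HTR4 in D2 (604 CPM in the larger cluster alone, chosen after seeing the data). PV/Th interneurons were not fitted at resolution 0.5, where no cluster kept the name in enough nuclei. No paired analysis was possible because the libraries of the 2 groups hold different sheep and their numbers, given in accession order, pair nothing.

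With 3 and 4 libraries the exact permutation test cannot go below 0.0286. The levels of HTR1F and HTR1B, and of all members in the cholinergic, endothelial and excitatory classes, rest on few UMIs.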
